A study of Gallus gallus with 2 samples.

Results

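Of 12798 named genes in the deposited table, 34 belong to the SLC25 mitochondrial carrier family, chosen by their symbols: 31 SLC25A genes, the uncoupling protein gene *UCP3* and the mitochondrial carrier homologs *MTCH1* and *MTCH2*. The skin of 16-week-old female Lueyang chickens with black skin (BS) or white skin (WS) was compared by RNA-Seq, to look for genes that differ between the skin colors. Each color gave 1 library, made from RNA of 3 birds pooled, out of 5 birds sampled, with skin 8 mm across taken from the left back. With 1 library per color there are no replicates, so no difference could be tested across birds, and each value describes these 2 pools only. Levels are given in FPKM, the fragments of a gene scaled to its length and to the size of the library. The log2 fold change (log2FC) divides the BS level by the WS level after adding 1 FPKM to each, so it is too small for genes near 0. Counts past 2-fold or 1.5-fold use this log2FC.

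Mitochondrial carriers are small proteins of the inner membrane, built from repeated pairs of membrane helices. They exchange nucleotides, phosphate, amino acids, organic acids, cofactors and iron between the matrix and the cytosol, and a few members sit in the outer membrane or in peroxisomes. In skin, as elsewhere, the best known of them export the ATP made by the mitochondria. Some are typical of muscle, brown fat or red cell precursors in mammals.

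Each of the 34 genes had a single locus of its own in the table, and 31 of them reached at least 1 FPKM in the higher library. The family as a whole was level between the colors, with a median log2FC of 0.01 over the 31 genes, against -0.04 over the 9545 named genes that reached the same level. Of the 31 genes, 1 (3.23%) was at least 2-fold higher in BS, *UCP3*, where 2.77% of the named genes were, and 1 (3.23%) was at least 2-fold lower, *SLC25A48*, where 2.30% were. In either direction this made 2 of 31 genes, against 5.07% of the named genes. These shares lie near the background. Within 1.5-fold were 27 genes, which is 87.1% of the family and 83.1% of the named genes. At least 1.5-fold higher in BS were *UCP3*, *SLC25A21* and *SLC25A4* (9.68%, against 8.62% of named genes). Under 2 of 3 other scalings *SLC25A3* and *SLC25A12* joined them, making 5 of 31, against 11.6% and 12.2% of named genes. *SLC25A48* alone was lower by that margin, as deposited and under each scaling (3.23%). Of the named genes 7.31%, 6.12% and 5.79% were so under the 3 other scalings, and 8.26% as deposited. In either direction 16.9% of the named genes were past 1.5-fold.

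**Figure D1:**
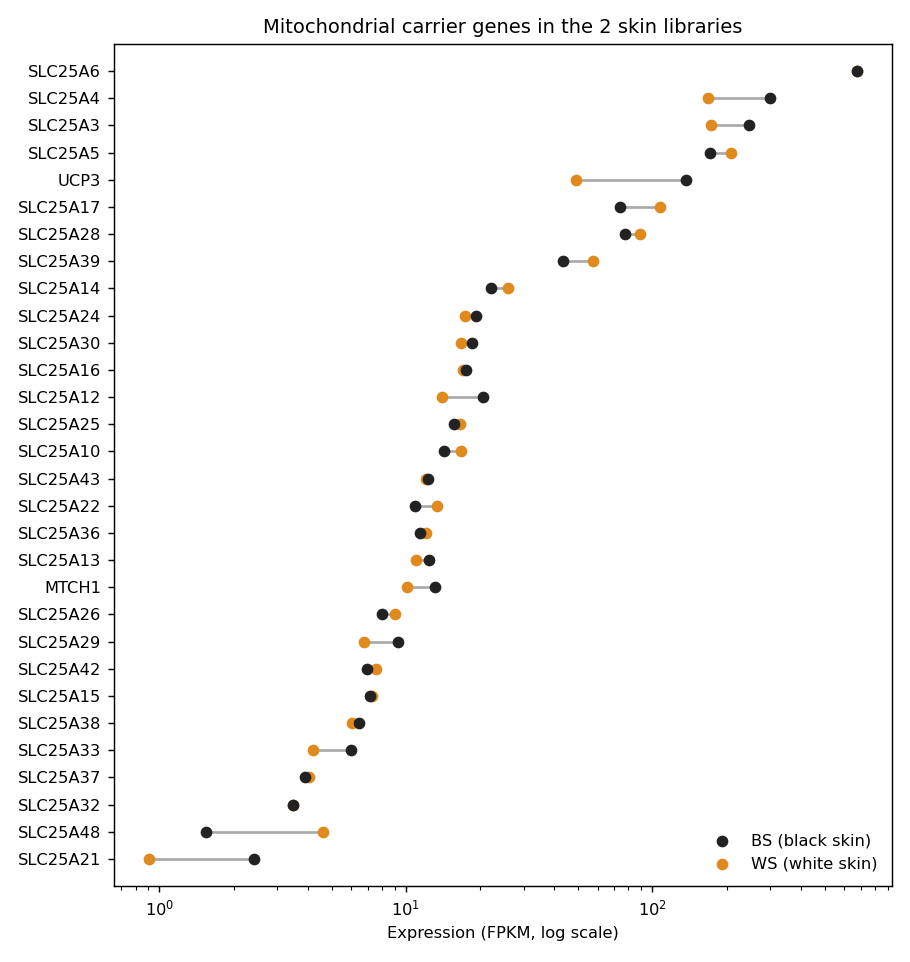
Expression of 30 of the 31 carrier genes above 0, in FPKM on a log axis, ordered by the mean of both libraries; black points are BS, orange points are WS, and each point is 1 pooled library. The levels span 1.55 to 677 FPKM in BS and 0.908 to 674 FPKM in WS, and the widest gaps belong to *UCP3*, *SLC25A48* and *SLC25A21*.

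The family summed to 1976 FPKM in BS against 1772 in WS, a ratio of 1.12. All named genes summed to 1114639 FPKM in BS against 1081338 in WS, a ratio of 1.03. All loci without a failed estimate, unnamed ones included, summed to 2237034 FPKM in BS against 3584398 in WS. The 4 most abundant members held 70.5% of the family sum in BS and 69.0% in WS. They were *SLC25A6*, *SLC25A4* and *SLC25A5*, which encode ADP/ATP carriers, and *SLC25A3*, which encodes the phosphate carrier. These genes supply the ATP synthase with ADP and phosphate. The largest excesses in BS, in FPKM, were those of *SLC25A4*, *UCP3* and *SLC25A3*. Leaving out these 3 genes therefore had to narrow the difference, and the sum was then 1294 FPKM in BS against 1382 in WS.

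*SLC25A6* stood at 677 FPKM in BS against 674 in WS, the highest member in both libraries and among the most even (log2FC 0.01). *SLC25A4*, the ADP/ATP carrier of heart and skeletal muscle in mammals, stood at 299 FPKM in BS against 167 in WS, a ratio of 1.79 and a log2FC of 0.83. Among the carriers its rank was 2 in BS and 4 in WS. *SLC25A5*, the form of dividing cells in mammals, ran the other way, with 171 FPKM in BS against 208 in WS (log2FC -0.28). The order of *SLC25A4* and *SLC25A5* was therefore reversed between the colors.

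Together the ADP/ATP carrier genes came to 1147 FPKM in BS against 1049 in WS, which is 58.0% and 59.2% of each library's family sum. Within them the share of *SLC25A4* was 26.1% in BS and 16.0% in WS. That of *SLC25A5* was 14.9% in BS and 19.8% in WS, and that of *SLC25A6* was 59.0% in BS and 64.3% in WS. A ratio taken within a library does not depend on how the libraries were scaled. By this measure *SLC25A6* exceeded *SLC25A4* by 2.26-fold in BS and by 4.03-fold in WS. These genes are close relatives in sequence, and the sources used here do not say how reads that match more than 1 of them were divided.

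**Figure D2:**
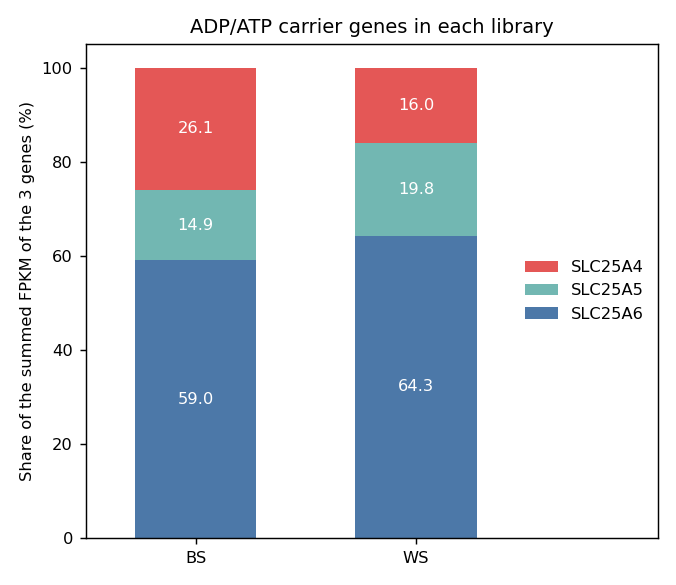
Share of each ADP/ATP carrier gene in the summed FPKM of the 3 genes, in percent, with BS in the left bar and WS in the right bar (1 pooled library each). The share of *SLC25A4* is 26.1% in BS and 16.0% in WS, with smaller shares of *SLC25A5* and *SLC25A6* in BS.

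*SLC25A3* stood at 246 FPKM in BS against 173 in WS (log2FC 0.51). Its deposited span is shared with *APAF1*, *IKBIP* and 2 other loci above 0, so its value may hold reads of overlapping genes. Of these, *SNORA53* stood at 24.3 FPKM in BS against 15.5 in WS and *ENSGALG00000023272* at 9.47 FPKM in BS against 0 in WS. *APAF1* was slightly higher in BS (log2FC 0.14) and *IKBIP* lower (-0.41). The calcium-regulated carriers of ATP-Mg and phosphate were even, with *SLC25A24* at 19.3 FPKM in BS against 17.4 in WS and *SLC25A25* at 15.7 FPKM in BS against 16.6 in WS.

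*UCP3* had the largest log2FC of the family, and the only larger plain ratio between the libraries was that of the low *SLC25A48*. It encodes the uncoupling protein that birds express mainly in skeletal muscle, a carrier that can let protons leak across the inner membrane. Its level was 137 FPKM in BS against 49.2 in WS, a ratio of 2.78 and a log2FC of 1.46. Only 106 of 9545 named genes (1.11%) had a log2FC as high, and 60 of the 5927 with a mean of at least 10 FPKM. Its rank among the carriers was 5 in BS and 8 in WS. The distant relatives *SLC25A14* and *SLC25A30*, known as brain and kidney uncoupling-like carriers, did not share this difference. *SLC25A14* stood at 22.1 FPKM in BS against 25.9 in WS, and *SLC25A30* at 18.5 FPKM in BS against 16.8 in WS. *UCP3* exceeded *SLC25A14* by 6.18-fold in BS and by 1.90-fold in WS.

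In the deposited coordinates *UCP3* lies on chromosome 1 from 200544391 to 200547326 and overlaps no other locus. The submitters' notes name galGal4, yet chromosome 1 of galGal4 ends before this position, so the build of the coordinates is unsettled. Of the 5 loci within 30000 bp, none was 2-fold apart. The nearest, *DNAJB13*, lies 341 bp away and stood at 1.18 FPKM in BS against 1.28 in WS. *PAAF1*, a proteasome assembly factor gene 5245 bp away, was at 15.2 FPKM in BS against 23.6 in WS, and *MRPL48*, a mitochondrial ribosomal protein gene, at 31.5 FPKM in BS against 27.6 in WS. The difference of *UCP3* was thus not shared by the genes beside it. *SLC25A4*, on chromosome 4 from 40757648 to 40760469, overlaps no other locus either. Both loci of its neighbor *KIAA1430* were slightly lower in BS (log2FC values -0.27 and -0.22), and 2 unnamed loci near it were higher at low levels (0.42 and 0.71).

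**Figure D3:**
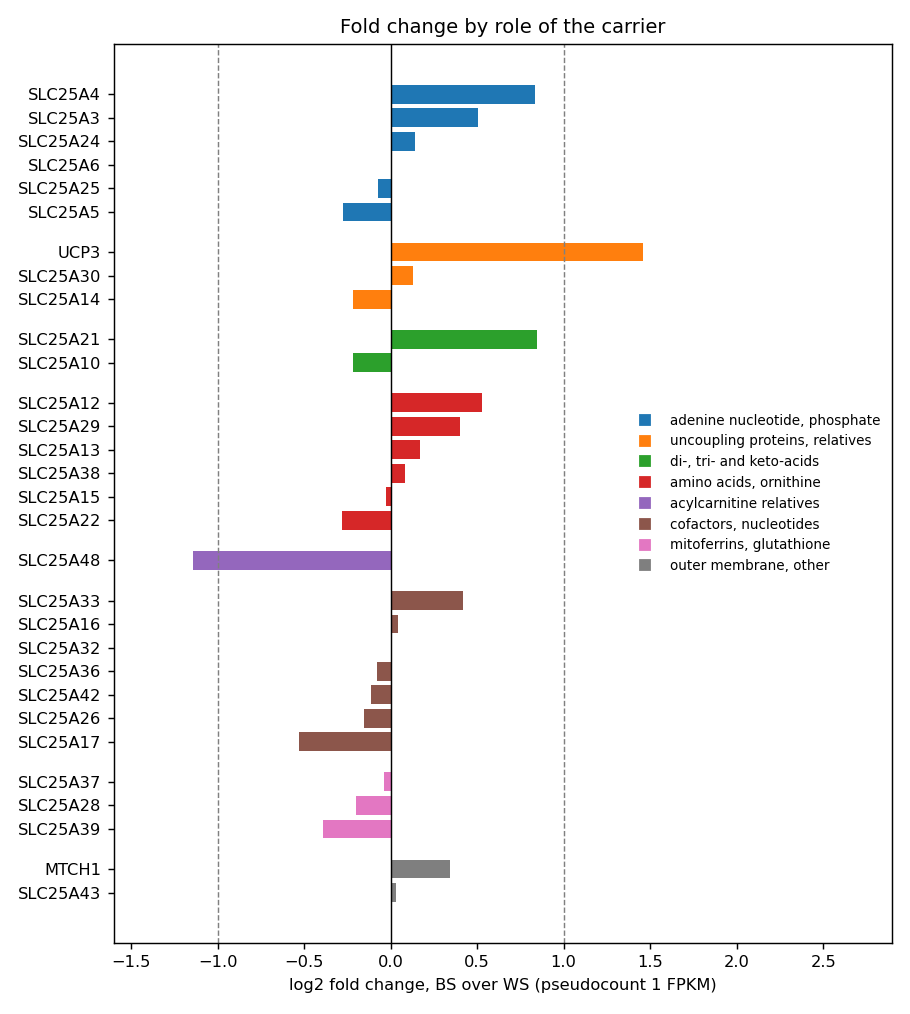
Log2FC of BS over WS for 30 of the 31 carrier genes, grouped by role, each bar being the difference of 1 library per color; dashed lines mark 2-fold. *UCP3* (1.46) and *SLC25A48* (-1.14) pass these lines, and *SLC25A21* (0.84) and *SLC25A4* (0.83) come next.

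Skeletal muscle markers were higher in BS together with *UCP3* and *SLC25A4*. All 13 listed markers that reached 1 FPKM were higher in BS, where 4332 of the 9545 named genes were. *DES*, also a gene of skeletal muscle but listed with smooth muscle, was not (log2FC -0.10). Of the 13, 9 were higher by at least 1.5-fold and 2 by at least 2-fold, against 8.62% and 2.77% of named genes. Their median log2FC was 0.79. The 15 markers found summed to 26799 FPKM in BS against 14382 in WS, a ratio of 1.86. *TNNC2*, listed at 0 in both libraries, lies on an unplaced sequence whose loci are all listed at 0, so this is not read as absence. The skeletal alpha-actin *ACTA1* stood at 17804 FPKM in BS against 9387 in WS, and the fast myosin *MYH1* at 63.5 FPKM in BS against 4.27 in WS. The log2FC of *SLC25A4* (0.83) lay near the median of these markers, while that of *UCP3* (1.46) was above 11 of the 13. Other marker lists had medians near these values too, smooth muscle with 0.85 and melanocyte with 1.45. More muscle in the skin piece and more RNA per muscle cell cannot be told apart in these bulk libraries, and the part of muscle in the carrier differences was not tested.

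Markers of other cell types also differed between the libraries. For comparison, of the 9545 named genes 4332 were higher and 5213 lower in BS. All 13 keratinocyte markers at 1 FPKM or more were lower in BS (sum 2781 FPKM in BS against 5302 in WS, with *KRT5* and *KRT75* listed at 0), and 5 of 5 red blood cell markers were lower (sum of the 6 found 2606 FPKM in BS against 5199 in WS). At least 2-fold lower were 6 of the 13 and 2 of the 5, against 2.30% of named genes. Under 2 of 3 other scalings 2 of the 13 keratinocyte markers were, against 1.60% and 1.49% of named genes. Of 9 melanocyte markers, 8 were higher in BS (sum 182 FPKM in BS against 73.4 in WS, with *PMEL*, *TYRP1*, *MLANA* and *SLC45A2* listed at 0). At least 2-fold higher were 7 of the 9, against 2.77% of named genes, and the median log2FC of the 9 was 1.45. Adipocyte markers differed less, with 6 of 8 higher in BS (sum 2640 FPKM in BS against 2119 in WS, with *LPL* and *DGAT2* listed at 0). Of the genes listed at 0, *TYRP1*, *MLANA*, *SLC45A2* and *LPL* lie on chromosome Z and *DGAT2* on an unplaced sequence. All loci of these sequences are listed at 0, so the values are not read as absence of the transcripts. Whether the 0 of *PMEL*, *KRT5* and *KRT75* reflects absence was not tested. In smooth muscle 4 of 5 markers were higher in BS, or 5 of 5 under 2 of 3 other scalings. Their median log2FC was 0.85 and their sum 3544 FPKM in BS against 2994 in WS. Past 2-fold were *ACTG2* (601 FPKM in BS against 201 in WS) and *MYH11* (262 FPKM in BS against 122 in WS), where 2.77% of named genes were. *DES*, also a gene of skeletal muscle, made up most of the sum and stood at 2208 FPKM in BS against 2372 in WS. In fibroblasts 5 of 9 markers were higher, or 7 of 9 under those scalings (median log2FC 0.04). Those scalings also raised the median log2FC of all named genes, from -0.04 to 0.07 and 0.09. The fibroblast sum was 6471 FPKM in BS against 10281 in WS, and without the collagen gene *COL1A2* it was 3619 FPKM in BS against 3786 in WS. Their part in the values of single carriers was not tested.

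**Figure D4:**
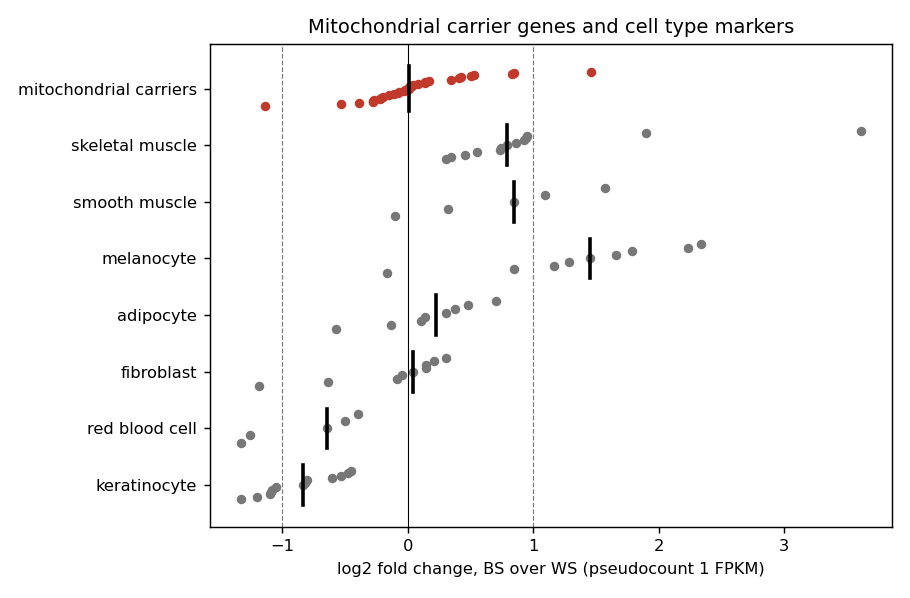
Log2FC of BS over WS for the 31 carrier genes (red) and for markers of 7 cell types (grey), all reaching 1 FPKM in either library; each point is a gene and each black bar a median. The carriers center near 0 (median 0.01). The medians of melanocyte (1.45), smooth muscle (0.85) and skeletal muscle markers (0.79) lie farthest to the right. Those of red blood cell (-0.65) and keratinocyte markers (-0.83) lie to the left.

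Among carriers of organic acids, *SLC25A21* was higher in BS at a low level. It encodes the carrier of oxoadipate, an intermediate in the breakdown of lysine and tryptophan, and stood at 2.42 FPKM in BS against 0.908 in WS. This is a ratio of 2.67, but a log2FC of 0.84 with the pseudocount, and 397 of the 9545 named genes (4.16%) were at or above it. Its deposited span is on chromosome 5 from 39126387 to 39355924. The nearest gene, *MIPOL1*, was under 1 FPKM in both libraries (0.442 FPKM in BS against 0.502 in WS), and *PAX9*, a developmental transcription factor gene 4687 bp away, was at 0.245 FPKM in BS against 1.19 in WS. *SLC25A10*, the dicarboxylate carrier, stood at 14.2 FPKM in BS against 16.7 in WS. The citrate carrier gene *SLC25A1* has no locus of its own, and the locus merged with *CLTCL1* (72.7 FPKM in BS against 101 in WS) was not counted as a member.

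*SLC25A48*, a relative of the acylcarnitine carrier, was the member with the lowest ratio. It stood at 1.55 FPKM in BS against 4.62 in WS, a log2FC of -1.14, and 133 of the 9545 named genes (1.39%) were as low or lower. In the table it lies on chromosome 13 from 15586155 to 15598372. An unnamed locus 173 bp away was at 1.15 FPKM in BS against 1.39 in WS, another 2447 bp away at 2.64 FPKM in BS against 4.14 in WS. The circadian F-box gene *FBXL21*, 23260 bp away, stood at 15.7 FPKM in BS against 18.1 in WS. With a pseudocount of 5, the log2FC of *SLC25A48* was -0.56. The number of reads behind values this low is unknown.

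Of the carriers of amino acids, 4 of 6 had a log2FC above 0, where 4332 of the 9545 named genes did. Under each other scaling 5 of 6 did, as *SLC25A15* turned, but each of these scalings also raised the median of all named genes. None of the 6 was 1.5-fold apart as deposited, and *SLC25A12* passed 1.5-fold under 2 of 3 other scalings. *SLC25A12* and *SLC25A13* encode the calcium-regulated exchangers of aspartate and glutamate that serve the malate-aspartate shuttle. *SLC25A12* stood at 20.6 FPKM in BS against 14.0 in WS (log2FC 0.53), in a span shared with *DYNC1I2*, and *SLC25A13* at 12.4 FPKM in BS against 11.0 in WS. The carrier of basic amino acids, *SLC25A29*, was at 9.29 FPKM in BS against 6.78 in WS (log2FC 0.40), in a span shared with another locus above 0. The glutamate carrier *SLC25A22* was the lowest in ratio, with 10.8 FPKM in BS against 13.4 in WS (-0.28). *SLC25A15*, the ornithine carrier of the urea cycle, and *SLC25A38*, a glycine carrier needed for heme in red cell precursors, were even. The first stood at 7.14 FPKM in BS against 7.28 in WS, the second at 6.44 FPKM in BS against 6.03 in WS.

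Carriers of cofactors and nucleotides were 8 in number, 3 of them higher and 5 lower in BS, where 5213 of the 9545 named genes were lower. Their median log2FC of -0.09 became 0.01 with upper quartiles set equal and 0.03 with totals apart from the most abundant loci set equal. *SLC25A17*, the peroxisomal carrier of coenzyme A and related cofactors, was the most abundant of these. It stood at 73.9 FPKM in BS against 107 in WS (log2FC -0.53), in a span shared with another locus above 0, and its rank was 7 in BS and 5 in WS. The pyrimidine nucleotide carrier *SLC25A33*, a gene induced by insulin-like growth factor in mammals, was at 5.96 FPKM in BS against 4.21 in WS (0.42), while its relative *SLC25A36* was at 11.4 FPKM in BS against 12.1 in WS. Of the others, *SLC25A16* and *SLC25A42* of coenzyme A, *SLC25A26* of S-adenosylmethionine and *SLC25A32* of folate, lay between log2FC values of -0.15 and 0.04.

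The 3 iron and glutathione carriers above 0 were lower in BS by small margins, where 5213 of the 9545 named genes were lower. Under 2 of 3 other scalings *SLC25A37* turned higher. *SLC25A28*, the mitoferrin of most tissues, stood at 77.5 FPKM in BS against 89.3 in WS (log2FC -0.20). Its paralog *SLC25A37*, the mitoferrin of red cell precursors, was at 3.90 FPKM in BS against 4.03 in WS (-0.04). The red blood cell markers were lower in BS, and the part of red cells in the level of *SLC25A37* was not tested. The ratio of *SLC25A28* to *SLC25A37* was 19.8 in BS and 22.2 in WS. *SLC25A39*, which imports glutathione, stood at 43.6 FPKM in BS against 57.3 in WS (-0.39).

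Of the remaining members, *MTCH1*, a protein of the outer membrane, was at 13.1 FPKM in BS against 10.1 in WS (log2FC 0.35). *SLC25A43*, a carrier with no settled substrate, was even at 12.3 FPKM in BS against 12.1 in WS. It lies 1522 bp from *SLC25A5* on chromosome 4, the closest pair in the family, yet *SLC25A5* exceeded it by 13.9-fold in BS and by 17.2-fold in WS.

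Listed at 0 in both libraries were *MTCH2*, *SLC25A46* and *SLC25A40*. *MTCH2* lies on an unplaced sequence and *SLC25A46*, a regulator of mitochondrial shape, on chromosome Z, and both are among 24 sequences whose 2269 loci are all listed at 0, so these values are not read as absence of the transcripts. *SLC25A40*, the paralog of *SLC25A39*, lies on chromosome 2, where 93.0% of 1165 named genes were above 0 and 82 were at 0 in both libraries. Its nearest neighbors were above 0, *DBF4* at 4.40 FPKM in BS against 4.93 in WS and *RUNDC3B* at 2.04 FPKM in BS against 1.75 in WS. Whether the 0 of *SLC25A40* reflects absence of the transcript was not tested.

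**Figure D5:**
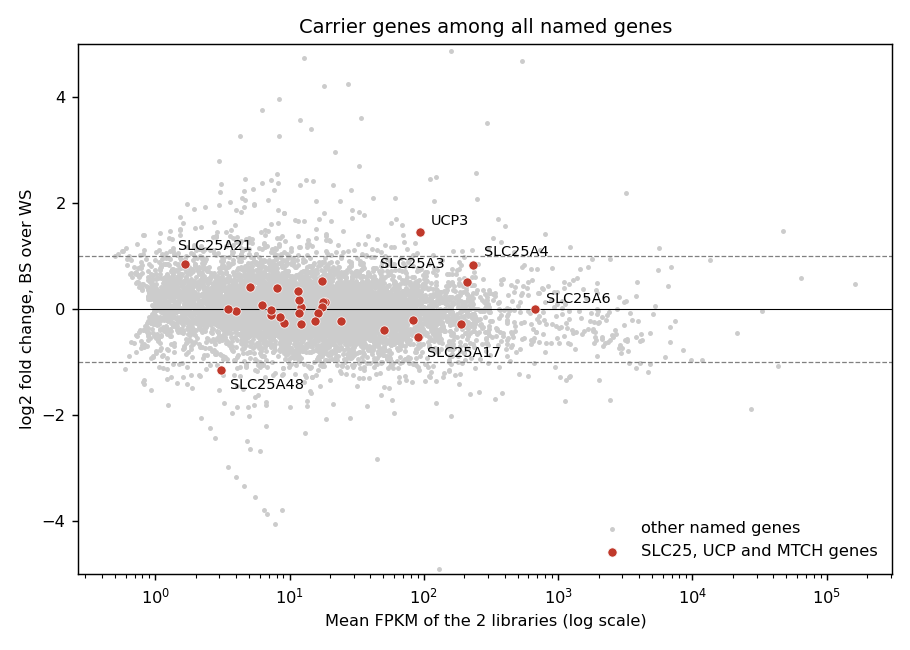
Log2FC of BS over WS against the mean FPKM of both libraries (log axis) for the 31 carrier genes (red) and the other named genes reaching 1 FPKM in either library (grey); dashed lines mark 2-fold, and 23 named genes lie outside the axis. Most carriers sit inside the grey cloud, and *UCP3* lies toward its upper edge. Of the 5927 named genes with a mean of at least 10 FPKM, 60 were as high as *UCP3*, itself included.

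Genes of the machinery around the carriers were measured too. Carriers are made in the cytosol, handed across the space between the membranes by small TIMM chaperones and inserted by *TIMM22*. None of 14 import genes was 2-fold apart, where 5.07% of named genes were, which is under 1 gene in 14, and their median log2FC was -0.0006. The most abundant was *TOMM7*, a subunit of the outer membrane entry gate, at 3356 FPKM in BS against 3515 in WS. *TIMM22* stood at 18.1 FPKM in BS against 16.6 in WS, and of the chaperones *TIMM9* was even while *TIMM10* was at 47.4 FPKM in BS against 81.4 in WS (-0.77). Of the 14, 7 were higher and 7 lower in BS. Past 1.5-fold were 2 upward and 1, *TIMM10*, downward, against 8.62% and 8.26% of named genes. Of 20 other genes of mitochondrial membrane transport none passed 2-fold with the pseudocount, and the median log2FC was -0.01. Of the 20, 9 were higher and 11 lower in BS, where 4332 of the 9545 named genes were higher. The calcium uniporter regulator *EFHA2*, at 5.30 FPKM in BS against 2.31 in WS, had a plain ratio of 2.29 but a log2FC of 0.93, which passed 2-fold under 2 of 3 other scalings. The most abundant by the mean of both libraries, the cholesterol-binding outer membrane protein *TSPO*, was at 145 FPKM in BS against 209 in WS. Within BS, *VDAC2* exceeded *TSPO*. The pores of the outer membrane were all higher in BS, *VDAC2* at 212 FPKM in BS against 134 in WS (0.66), *VDAC1* at 62.1 FPKM in BS against 40.7 in WS (0.60) and *VDAC3* at 39.0 FPKM in BS against 27.6 in WS (0.48).

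Among enzymes that work with the carriers, none passed 2-fold with the pseudocount. Of the named genes 5.07% did so in either direction, a share at which lists of 9 genes or fewer may well hold none. Of 9 enzymes of the malate-aspartate shuttle and citrate metabolism, 6 were higher in BS (median log2FC 0.32), where 4332 of the 9545 named genes were. Under each other scaling 7 of the enzymes were higher, but these scalings also raised the median of all named genes. The most abundant, the mitochondrial malate dehydrogenase *MDH2*, stood at 216 FPKM in BS against 173 in WS. *MDH1*, the cytosolic malate dehydrogenase, stood at 91.1 FPKM in BS against 56.6 in WS (0.68), and *ACLY*, which splits the exported citrate, at 67.4 FPKM in BS against 94.8 in WS (-0.49). No call was made among 9 genes of the carnitine shuttle and beta-oxidation (median 0.21), 5 of ornithine and arginine metabolism (-0.02), 9 of heme and iron-sulfur synthesis (0.06) or 8 regulators of mitochondrial biogenesis (-0.11). The low arginase gene *ARG2*, at 1.78 FPKM in BS against 0.817 in WS, had a plain ratio of 2.18 and a log2FC of 0.61. Among the regulators, *ESRRG*, a nuclear receptor of oxidative tissues, stood at 5.77 FPKM in BS against 2.91 in WS (0.79), and *TFAM*, the packaging factor of mitochondrial DNA, at 37.5 FPKM in BS against 39.7 in WS.

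At least 1 FPKM in the higher library was reached by 31 of the 34 mitochondrial carriers (91.2%) and by 144 of 226 other solute carrier genes (63.7%), a difference that was not tested. Of all named genes, 9545 of 12798 reached this level. Genes listed at 0 in both libraries count as not reaching it, and these were 3 of the 34 and 32 of the 226. Past 2-fold in BS were 2 of the 144 other solute carrier genes upward (1.39%, against 2.77% of named genes) and 7 downward (4.86%, against 2.30%). Their median log2FC was -0.02. The median level of the 31 mitochondrial carriers was 13.1 FPKM in BS against 13.4 in WS, close to that of all 9545 named genes (14.1 FPKM in BS against 14.5 in WS).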

How the data were processed

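Skin RNA was sequenced on an Illumina HiSeq instrument in 2 libraries, BS and WS. The authors mapped the reads and deposited an FPKM value per locus and library (the paper names Bowtie, Cuffdiff and galGal4 appear in the submitters' processing notes, versions not given in the sources used here). A second deposited table repeats these FPKM values. The authors' own fold changes, p values and q values in both tables were not used. The tables hold no counts of reads per locus, so counting error is unknown. The paper gives the read totals of each library, and in both more reads were unmapped than aligned.

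Members were matched by symbol. Merged names and 5 loci with a failed estimate were left out, and of loci sharing a symbol the highest mean was kept. Fold changes used a pseudocount of 1 FPKM, and counts took only genes reaching 1 FPKM in either library. No test was possible with 1 library per color. The members and lists were chosen with earlier results of these data known. Any member could be named, and of the other lists the genes at least 2-fold apart and the most abundant one. Neighbors of members and *TIMM9*, *TIMM10*, *TIMM22*, *VDAC1*, *VDAC2*, *VDAC3*, *EFHA2*, *ARG2*, *MDH1*, *ACLY* and *ESRRG* were chosen for naming with their values in view. Other settings tried were other pseudocounts, filters, scalings, sums over loci and loci with status OK. RefSeq symbols (GRCg7b) matched all 34 members, and *SLC25A20*, *SLC25A34*, *SLC25A47* and *SLC25A51* were not analysed here. The value of 1 member, within 1.5-fold and included in all counts and sums, is not reported here. The calculation was checked on simulated data with little noise and planted changes larger than 2-fold, in genes of at least 5 FPKM. This check does not measure the error of the calls made here. Python 3.11.15, pandas 2.3.3, numpy 2.4.6 and matplotlib 3.10.9 were used.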

Additional observations from a re-analysis of the deposited data

How the results depend on the processing

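The count of carriers at least 2-fold higher in BS was 1 as reported, 2 with a pseudocount of 0.1 (where *SLC25A21* joined *UCP3*) and 3 at a threshold of 1.5-fold, which was chosen after seeing the data. At 1.5-fold the count higher was 5 with upper quartiles set equal or with totals apart from the most abundant loci set equal, where *SLC25A3* and *SLC25A12* were added, and 3 with the median log2 ratio set to 0. The count at least 2-fold lower was 1 as reported and 0 with a pseudocount of 5 or with at least 5 FPKM required, where *SLC25A48* fell short or was not counted. The log2 fold change of *UCP3* ranged between 1.39 and 1.59 over all pseudocounts, filters and scalings. The family median was 0.0059 as reported, 0.0410 with the median log2 ratio set to 0, 0.0962 with upper quartiles set equal and 0.1132 with totals apart from the 50 most abundant loci set equal. The last scalings moved the median of all named genes by 0.11 and 0.13. The carriers higher and lower in BS were 16 and 15 as reported, and 17 and 14, 20 and 11, and 21 and 10 under these scalings, and 5 of 31 changed sign under at least 1 alternative (*SLC25A15*, *SLC25A25*, *SLC25A36*, *SLC25A37* and *SLC25A42*). Of all named genes past 2-fold, 54.5% were higher in BS as reported and 60.2%, 69.1% and 71.5% under the scalings. No paired analysis was possible because each color has 1 library. Values near 1 FPKM rest on an unknown number of reads.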
